A study of Homo sapiens with 6 samples.

Results

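The transcripts described here encode the proteins of the cytosolic ribosome. They were taken as the protein-coding genes whose symbol has the form RPL or RPS followed by a number, with an optional A, X, Y or L, together with RPSA, RPLP0, RPLP1 and RPLP2, and without the RPS6K kinases. By this rule 86 of the 58243 listed genes were chosen, of which 46 are core genes of the large subunit (RPL), 31 are core genes of the small subunit (RPS) and 9 are paralogs that are restricted to some tissues or duplicate a core gene. The study sequenced mRNA of CAL27 cells, an established human line derived from a tongue tumour, a squamous cell carcinoma. The series asks how metformin affects the sensitivity of such tumour cells to chemotherapy. Both groups were grown in DMEM with fetal bovine serum. The treated cells received 30 mM metformin, a biguanide drug that lowers blood glucose, for 48 h, and the control cells received the PBS vehicle for the same 48 h, with 3 libraries in each group. No lower dose was included, and whether the libraries of a group came from separate cultures is not stated, so a p-value measures the spread between libraries, which may be technical.

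A ribosome is built from a small subunit that reads the mRNA and a large subunit that joins amino acids, and each subunit needs its full set of proteins. Ribosomal protein mRNAs are among the most abundant of growing cells, and most of them begin with a 5′ terminal oligopyrimidine (TOP) tract, a C at the first base followed by further C and U bases. The kinase complex mTORC1, which metformin is known to inhibit in many cell types, controls the translation of TOP mRNAs through the RNA-binding protein LARP1, which also protects them from decay. Translation was not measured here, and mRNA sequencing of a cell population cannot tell fewer cells of a type apart from less RNA per cell.

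The first bases of the transcripts are shown for the members that differed most, because the TOP tract is the sequence feature these genes are known for. Each line gives 30 bases of the GRCh38.p14 reference around the RefSeq start, 15 before it and 15 from it on, read 5′ to 3′ on the gene's own strand, with the unbroken run of C and T from the first transcribed base in capitals. The first 6 genes had the largest rises of those that the RefSeq table lists, and the last 3 were lower with metformin.
RPS27, chr1:153990747-153990776, plus strand: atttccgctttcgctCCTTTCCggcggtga
RPL26, chr17:8383179-8383208, minus strand: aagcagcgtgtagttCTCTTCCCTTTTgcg
RPL21, chr13:27251543-27251572, plus strand: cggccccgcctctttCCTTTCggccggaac
RPL13A, chr19:49487593-49487622, plus strand: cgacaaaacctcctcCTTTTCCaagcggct
RPS18, chr6:33272060-33272089, plus strand: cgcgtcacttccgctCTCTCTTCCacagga
RPL37A, chr2:216498829-216498858, plus strand: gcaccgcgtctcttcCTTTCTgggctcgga
RPS26, chr12:56041903-56041932, plus strand: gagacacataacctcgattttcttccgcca
RPL12, chr9:127451392-127451421, minus strand: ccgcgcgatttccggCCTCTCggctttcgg
RPL3, chr22:39319609-39319638, minus strand: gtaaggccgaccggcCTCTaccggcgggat
A start was counted as a TOP start where the first base was C and at least 4 further bases were each C or T, on the strand of the transcript only. By this count the 6 genes with rises and RPL12 have one. RPL3 has a run of 4 bases, which falls short of the count, and RPS26 has none at the annotated first base. RPL37, RPS2 and RPL8, which are described with them, are named only.

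Most ribosomal protein transcripts were higher in the metformin-treated cells, by modest amounts. Of the 82 members that reached a mean of 1 FPKM (mapped fragments scaled to exon length and to library depth) and were tested, 58 rose, 5 fell and 19 were not called by limma with Benjamini-Hochberg adjustment over all 13437 tested genes at 0.05. Of the tested members 70.7% rose and 6.1% fell, against 31% and 25.2% of all tested genes. All 77 core genes passed the level filter, and 56 of them rose, 5 fell and 16 were not called. Changes are the metformin mean less the PBS mean of log2(FPKM + 1). The median log2 change was 0.34 over the tested members, beside 0.06 over all tested genes and 0.02 over tested protein-coding genes. The quartiles of the members were 0.21 and 0.50.

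The median ratio of group means over the core genes was 1.27, 13 members were at least 1.5-fold higher, and 0 were at least 2-fold higher. All metformin libraries lay above all PBS libraries for 58 tested members and below them for 7, where the same held for 35.7% and 28.7% of all tested genes. The median standard error of a member's log2 change was 0.0660, against 0.0993 over all tested genes. PBS replicate 1 was the lowest PBS library for 63 of the 82 tested members, and without it 51 members rose, 7 fell and the median change was 0.30. Without that library 28.1% of all tested genes rose and 22.7% fell. Both libraries numbered 3 stood apart in RNAs without a poly(A) tail, whose sum was 253 FPKM in metformin replicate 3 and 244 FPKM in PBS replicate 3, against 106 and 121 FPKM in the other metformin libraries and 107 and 71.1 FPKM in the other PBS libraries. Without the libraries numbered 3, 56 members rose, 4 fell and the median change was 0.36. In that fit 24.4% of all tested genes rose and 20.4% fell. Under median-of-ratios scaling, 48 members rose, 8 fell and their median was 0.27. Of all tested genes 26.9% then rose and 28.7% fell, with a median of -0.003.

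**Figure D1:**
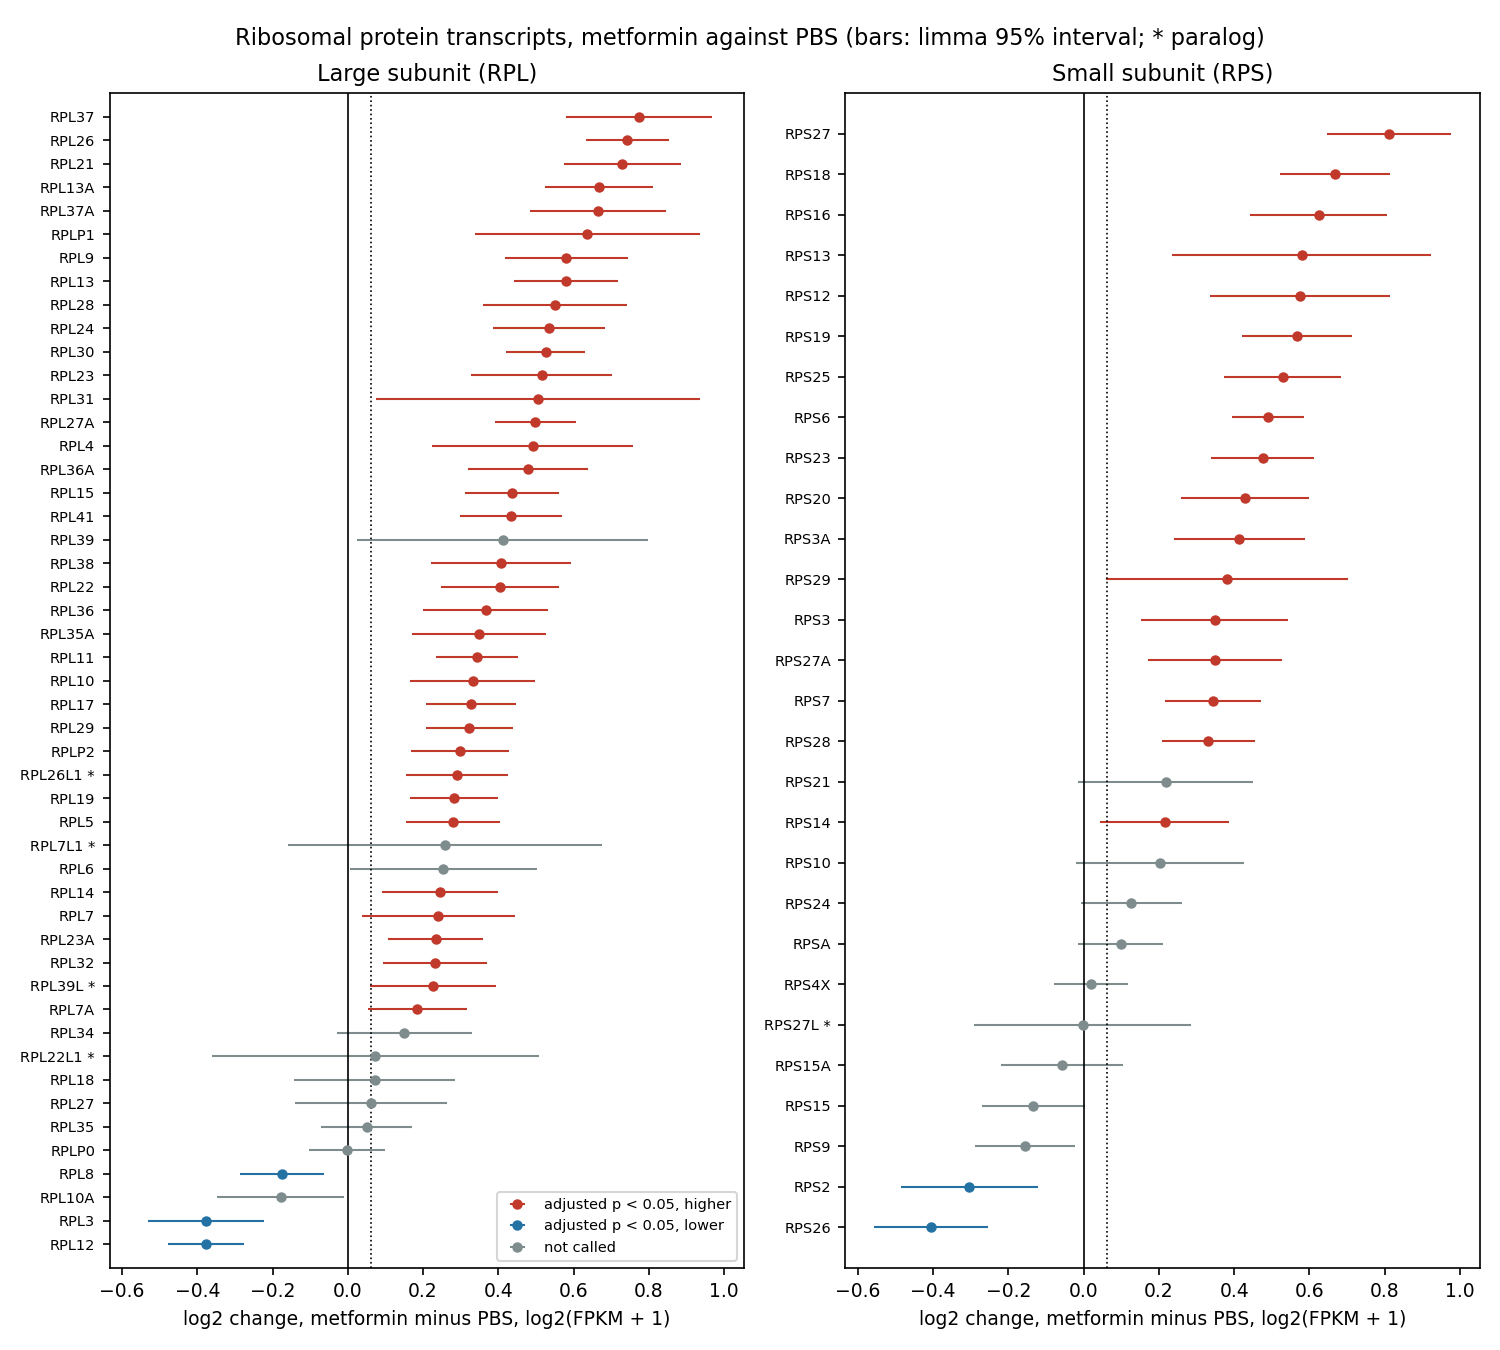
Log2 change of the tested ribosomal protein transcripts reported here, metformin minus PBS in log2(FPKM + 1), with limma's 95% interval, for genes of the large subunit on the left and of the small subunit on the right. The dotted line is the median of all tested genes (0.06), and an asterisk marks a paralog; most points lie right of that line in both panels, with 5 called members left of 0, of which RPS2 lay at 0.04 under quantile scaling.

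The transcripts of both subunits were higher by about the same median amount. Of the 46 core RPL genes 35 rose, 3 fell and 8 were not called, with a median log2 change of 0.35. Among the 31 core RPS genes 21 rose, 2 fell and 8 were not called, also with a median of 0.35, so that the medians differed by 0.0059. Summed over the 46 core RPL genes, the level was 9269, 9813 and 9206 FPKM in the metformin libraries and 7127, 7917 and 7696 FPKM in the PBS libraries. The 31 core RPS genes summed to 6765, 7023 and 6378 FPKM with metformin and 5154, 5572 and 5457 FPKM with PBS. In both sums the lowest metformin library was above the highest PBS library, and the group means differed by 1.24-fold for RPL and 1.25-fold for RPS.

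The ratio of the RPL sum to the RPS sum was 1.37, 1.40 and 1.44 in the metformin libraries and 1.38, 1.42 and 1.41 in the PBS libraries. These ranges overlap, and the mean ratio with metformin was 0.999 times that with PBS. All members together made up 7.97, 8.34 and 7.81% of the summed FPKM of the metformin libraries, against 6.06, 6.49 and 6.46% in the PBS libraries. FPKM depends on the exon length by which it is divided, which the sources used here do not give. Fragments were estimated by assuming the summed length of all annotated exons. As a share of estimated fragments the members held 4.56, 4.79 and 4.47% with metformin and 3.49, 3.85 and 3.75% with PBS. On both scales the groups did not overlap.

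**Figure D2:**
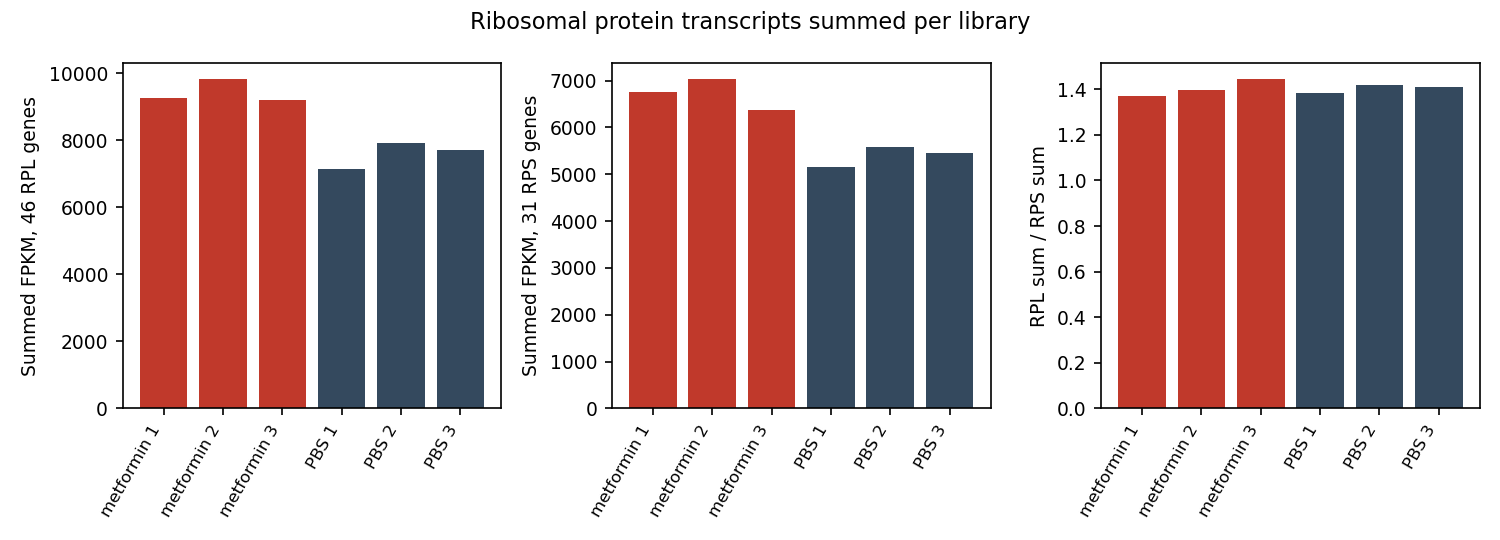
Summed FPKM of the 46 core RPL genes, summed FPKM of the 31 core RPS genes and their ratio, 1 bar per library, metformin libraries left of PBS libraries. Both sums are higher in each metformin library than in any PBS library, while the ratios lie between 1.37 and 1.44 with metformin and between 1.38 and 1.42 with PBS.

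In the large subunit the largest rises were those of RPL37, RPL26, RPL21, RPL13A and RPL37A. RPL37, a small zinc-binding protein, stood at 74.4, 78.9 and 77.9 FPKM in the metformin libraries and at 39.4, 46.9 and 48.1 FPKM in the PBS libraries. The ratio of means was 1.72-fold, with a log2 change of 0.77 ± 0.08 (SE, adjusted p = 0.000287). Its lowest metformin library was above its highest PBS library by a wide margin. RPL26, which sits by the exit of the peptide tunnel and is the main ribosomal target of the ubiquitin-like modifier UFM1, had 206, 203 and 204 FPKM with metformin and 116, 122 and 128 FPKM with PBS, a 1.68-fold rise (log2 change 0.74 ± 0.05, adjusted p = 3.36e-05). The metformin libraries of RPL26 agreed within 1.43 FPKM (SD), and the groups were far apart.

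RPL21, which is mutated in an inherited form of hair loss, had 435, 443 and 414 FPKM in metformin libraries, against 237, 278 and 264 FPKM in PBS libraries (1.66-fold, adjusted p = 0.000142). RPL13A, known also as a translational repressor of the GAIT complex once it leaves the ribosome, reached 766, 821 and 794 FPKM with metformin and 468, 542 and 491 FPKM with PBS (1.59-fold, adjusted p = 0.000151). RPL37A, another zinc-binding protein, had 61.9, 68.8 and 60.6 FPKM with metformin and 36.8, 39.9 and 42.9 FPKM with PBS (1.60-fold, adjusted p = 0.000417). For these 3 genes the groups did not overlap in any library. Named pseudogenes of RPL21 held a summed level equal to 16.0% of that of RPL21 in PBS cells, and fragments shared between such copies may have been assigned to either.

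RPL5 and RPL11, which with 5S rRNA form the particle that can bind and block MDM2, both rose. RPL5 was at 273, 274 and 260.3 FPKM with metformin and 209.9, 235 and 219 FPKM with PBS, and its log2 change was 0.28 ± 0.05 (adjusted p = 0.00372). RPL11 was at 515, 518 and 528 FPKM with metformin and 388, 429.9 and 412 FPKM with PBS, and its log2 change was 0.34 ± 0.05 (adjusted p = 0.000809). Neither gene's groups overlapped.

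The stalk of the large subunit, which recruits translation factors, held members that rose, fell and were not called. RPLP1, an acidic stalk protein, had 284, 311 and 259 FPKM in metformin libraries and 150.5, 198 and 203 FPKM in PBS libraries, a log2 change of 0.64 ± 0.13 (adjusted p = 0.00482). RPLP2, its partner, had 264, 270.2 and 249.7 FPKM with metformin and 199.8, 223 and 215 FPKM with PBS, a log2 change of 0.30 ± 0.05 (adjusted p = 0.00355). Both rose, with the larger estimate for RPLP1, and the difference between them was not tested. RPLP0, the scaffold that anchors both, had 175, 184 and 189 FPKM with metformin and 184, 180.5 and 184 FPKM with PBS, and its log2 change of 0.00 had a 95% interval of -0.10 to 0.10. Under quantile scaling RPLP0 was higher with metformin by 0.16 (adjusted p = 0.0474). RPL12, which binds rRNA at the stalk base beside RPLP0, had 233, 249 and 241 FPKM with metformin and 311, 323 and 304 FPKM with PBS, and fell by 0.38 ± 0.04 on the log2 scale (adjusted p = 0.000398). No metformin library of RPL12 reached the level of a PBS library.

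RPL3 and RPL8 were the other large-subunit members that fell, and both reach towards the peptidyl transferase centre, where peptide bonds form. RPL3 was at 145, 144 and 142 FPKM in metformin libraries and 172, 186 and 204 FPKM in PBS libraries, with a log2 change of -0.38 ± 0.06 (adjusted p = 0.00265). The metformin libraries of RPL3 were nearly equal and all below the PBS libraries. RPL8 was at 167, 178 and 177 FPKM with metformin and 194, 204 and 191 FPKM with PBS, with a log2 change of -0.18 ± 0.05 (adjusted p = 0.0166). The groups of RPL8 did not overlap, but its call was lost under 6 of the 20 alternatives. Among these were the fit without metformin replicate 1 (adjusted p = 0.0585) and quantile scaling (log2 change -0.01, adjusted p = 0.893).

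In the small subunit RPS27 and RPS18 rose most. RPS27, a zinc-finger protein, had 419, 426 and 424 FPKM in the metformin libraries and 216, 251 and 257 FPKM in the PBS libraries. This was the largest change of any tested member, 1.75-fold, with a log2 change of 0.81 ± 0.07 (adjusted p = 0.000114). RPS18, which lies in the head of the subunit, had 540.3, 591 and 513 FPKM with metformin and 329, 347 and 357 FPKM with PBS (1.59-fold, adjusted p = 0.000163). All metformin libraries of both genes were above all PBS libraries.

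Small-subunit members known for roles of their own rose as well. RPS6, whose phosphorylation by S6 kinases is the standard readout of mTORC1 activity, had 563, 583 and 582 FPKM with metformin and 395, 426 and 409 FPKM with PBS (log2 change 0.49 ± 0.04, adjusted p = 0.000101). RPS19, the gene most often mutated in Diamond-Blackfan anaemia, had 121, 132 and 130.0 FPKM with metformin and 85.7, 91.0 and 80.7 FPKM with PBS (log2 change 0.57 ± 0.06, adjusted p = 0.000331). RPS25, which some viral mRNAs need to start translation without a cap, had 179.8, 181 and 162 FPKM with metformin and 112, 123 and 126 FPKM with PBS (log2 change 0.53 ± 0.07, adjusted p = 0.000597). The groups of the 3 genes did not overlap. RPS3, which lines the mRNA entry channel, and RPS27A, which is made as a fusion to ubiquitin, had equal log2 changes of 0.35 (adjusted p = 0.0101 for RPS3 and 0.00692 for RPS27A). RPS3 was at 100.2, 98.0 and 100.4 FPKM with metformin and 70.3, 76.6 and 88.1 FPKM with PBS. RPS27A was at 131, 143 and 118 FPKM with metformin and 98.6, 106 and 102 FPKM with PBS. Neither gene's metformin libraries reached down to its PBS libraries.

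Other members at least 1.5-fold higher were RPLP1, given above, and RPS16, RPS13, RPL9 and RPL13. RPS16 had 178, 193 and 168 FPKM with metformin and 106, 123 and 119 FPKM with PBS (log2 change 0.62 ± 0.08, adjusted p = 0.000562). RPS13 had 149, 127 and 107 FPKM with metformin and 89.4, 93.4 and 71.7 FPKM with PBS (log2 change 0.58 ± 0.14, adjusted p = 0.0129). The libraries of RPS13 were more scattered than those of RPS16, yet in neither gene did the groups overlap. RPL9 had 308, 329 and 276 FPKM with metformin and 195, 205 and 208 FPKM with PBS (log2 change 0.58 ± 0.07, adjusted p = 0.000476). RPL13 had 111, 121 and 115 FPKM with metformin and 73.6, 81.8 and 75.5 FPKM with PBS (log2 change 0.58 ± 0.06, adjusted p = 0.000234). Both RPL genes were higher in each metformin library than in any PBS library.

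Among the large-subunit genes not described on their own, RPL4, RPL14, RPL15, RPL17, RPL19, RPL23, RPL23A, RPL24, RPL27A, RPL28, RPL29, RPL30, RPL32, RPL35A, RPL36, RPL36A, RPL38 and RPL7A rose, with log2 changes between 0.18 for RPL7A and 0.55 for RPL28. Among those of the small subunit RPS3A, RPS7, RPS12, RPS14, RPS20, RPS23 and RPS28 rose, with log2 changes between 0.22 for RPS14 and 0.58 for RPS12. In none of these genes did the groups overlap. Under median-of-ratios scaling the calls of RPL7A, RPL14, RPL23A, RPL32 and RPS14 were lost, with adjusted p between 0.0537 and 0.166. RPL7A and RPS14 each lost their call under 8 of the 20 alternatives, RPL7A without either of metformin replicates 1 and 2 or PBS replicates 1 and 3, and RPS14 without either of metformin replicates 1 and 2 or any PBS replicate. RPL14 lost its call without metformin replicate 2 (adjusted p = 0.0519).

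RPS26 and RPS2 fell. RPS26, which lies at the mRNA exit channel and joins the subunit late in its assembly, had 67.2, 70.9 and 62.3 FPKM in metformin libraries and 92.3, 89.7 and 84.2 FPKM in PBS libraries. PBS cells held 1.33 times the level of metformin cells, the largest fall of any tested member, with a log2 change of -0.41 ± 0.06 (adjusted p = 0.0017). RPS2, which like RPS3 lines the mRNA entry channel, had 687, 699 and 576 FPKM with metformin and 805, 825 and 783 FPKM with PBS. Its log2 change was -0.30 ± 0.08 (adjusted p = 0.0136) and the groups did not overlap, but under quantile scaling it was 0.04 (adjusted p = 0.712), so its direction depends on the scaling.

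**Figure D3:**
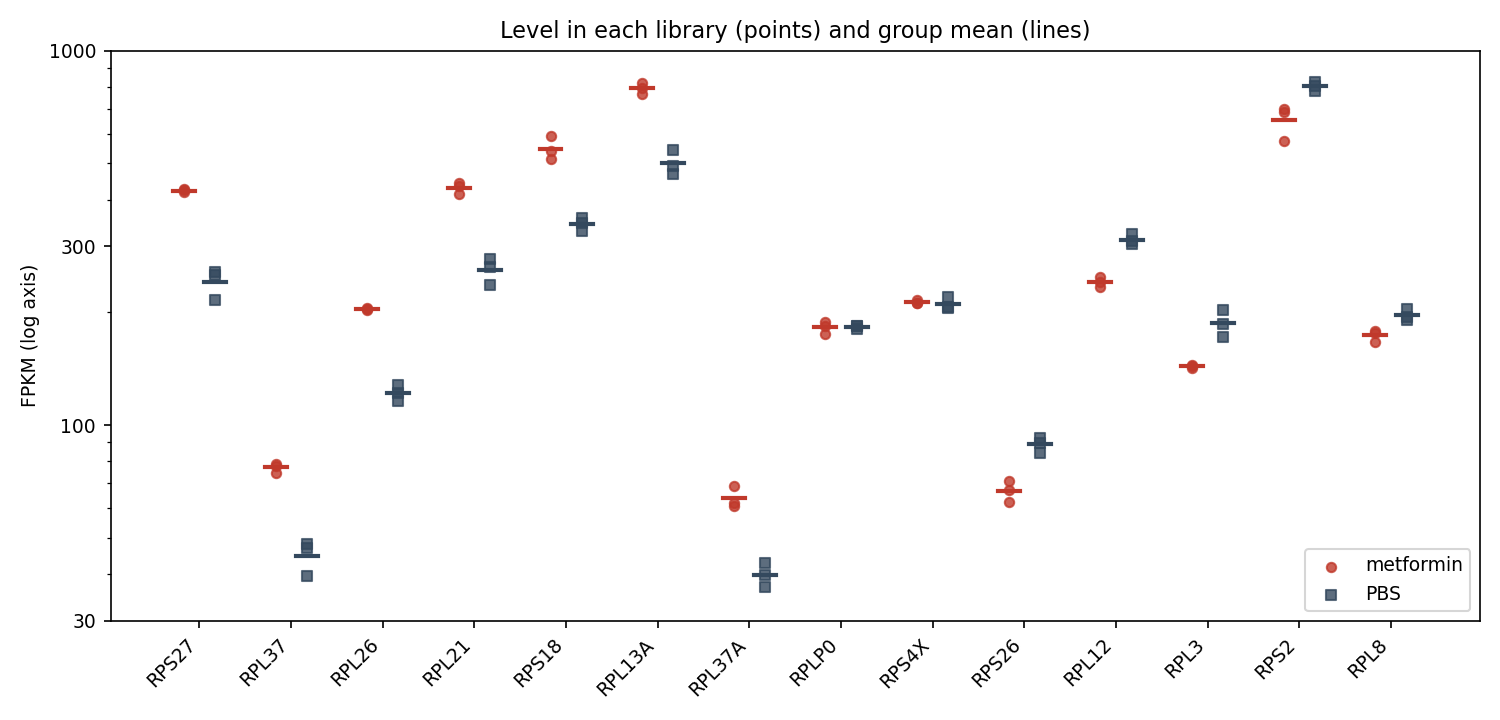
Level in FPKM, on a log axis, of 14 ribosomal protein transcripts in each library, with metformin points left of PBS points and a line at each group mean. The 7 transcripts with the largest rises reported here stand on the left, RPLP0 and RPS4X, whose groups overlap, in the middle, and the 5 called falls on the right, of which RPS2 reversed to 0.04 under quantile scaling.

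By FPKM the most abundant members in PBS cells were RPS2, RPL13A, RPL41 and RPL35. This order depends on the exon length used: per length of the principal mRNA, RPS2 kept rank 1 among the core genes, RPL35 had rank 2, RPS24 rank 3, RPL13A rank 8 and RPL41 rank 10. These ranks rest on fragments estimated by assuming the summed length of all annotated exons. RPL41, which encodes a very short peptide, had 644, 704 and 635 FPKM with metformin and 461, 498 and 508 FPKM with PBS, and rose by 0.43 ± 0.06 on the log2 scale (adjusted p = 0.000771). RPL35, which lies by the tunnel exit, had 473, 514 and 484 FPKM with metformin and 448, 483 and 490.3 FPKM with PBS. The groups of RPL35 overlapped, and its log2 change of 0.05 had a 95% interval of -0.07 to 0.17.

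Across the core genes the mean level ran between 10.0 and 794 FPKM with metformin and between 7.50 and 804 FPKM with PBS, lowest for RPS29 in both groups. These levels are divided by the summed length of all annotated exons, 767 to 9845 bases, and RPS29 has the longest. The level in PBS cells and the log2 change were only weakly related across the 77 core genes (Pearson's r = -0.16, Spearman's rho = -0.14), as were exon length and change (r = 0.07, rho = 0.11). The points of these relations share the same libraries and are a description. With the assumed exon length, the estimated number of fragments of a core gene in its shallowest library was 479 or more.

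The 16 core genes that were not called were RPL6, RPL10A, RPL18, RPL27, RPL34, RPL35, RPL39, RPLP0, RPS4X, RPS9, RPS10, RPS15, RPS15A, RPS21, RPS24 and RPSA. Their log2 changes ran between -0.18 for RPL10A and 0.41 for RPL39, 11 of them positive and 5 negative. RPL39, a tunnel protein, had 81.0, 71.6 and 62.6 FPKM with metformin and 46.7, 47.8 and 68.2 FPKM with PBS, with PBS replicate 3 far above the other PBS libraries, and without that library its log2 change was 0.59 (adjusted p = 0.00711). RPS4X, the X-linked gene of a core small-subunit protein, had 212, 216 and 212 FPKM with metformin and 205, 219 and 207 FPKM with PBS, and its log2 change of 0.02 had an interval of -0.08 to 0.12. RPS9 had 75.5, 78.4 and 72.0 FPKM with metformin and 79.7, 87.8 and 84.6 FPKM with PBS, which did not overlap, and an adjusted p of 0.0502. RPL31 was called higher although its groups overlap, with 44.9, 38.3 and 31.8 FPKM with metformin and 22.2, 24.5 and 34.0 FPKM with PBS (adjusted p = 0.049), and the call was lost under 11 of the 20 alternatives.

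The paralogs were set beside their core partners. RPL3L, known from striated muscle, and RPL10L, known from testis, were listed at 0 in every library, and the Y-linked pair, RPS4Y1 and RPS4Y2, stayed below the level filter. RPL10, the core partner of RPL10L, had 139, 143 and 131 FPKM with metformin and 101, 119 and 108 FPKM with PBS (log2 change 0.33, adjusted p = 0.00643). Of the 5 tested paralogs 2 rose, 0 fell and 3 were not called, with a median log2 change of 0.23. RPL26L1 had 27.9, 26.6 and 29.4 FPKM with metformin and 22.5, 23.4 and 22.2 FPKM with PBS, a log2 change of 0.29 ± 0.06 (adjusted p = 0.00463), where that of RPL26 was 0.74. RPL39L had 32.9, 36.6 and 35.9 FPKM with metformin and 29.5, 28.1 and 32.1 FPKM with PBS, a log2 change of 0.23 ± 0.07 (adjusted p = 0.0296). The call of RPL39L was lost under 7 of the 20 alternatives, median-of-ratios scaling among them. It was also lost without metformin replicate 2 or 3 and without PBS replicate 1 or 2, with adjusted p between 0.0774 and 0.0873.

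RPL7L1, whose yeast counterpart acts in large-subunit assembly, had 22.7, 18.1 and 24.1 FPKM with metformin and 16.9, 14.5 and 22.9 FPKM with PBS, and its overlapping groups gave an adjusted p of 0.249. Without PBS replicate 3 the log2 change of RPL7L1 was 0.43 in place of 0.26 (adjusted p = 0.0429). Its core partner RPL7 had 282, 314 and 247 FPKM with metformin and 230.0, 244 and 236 FPKM with PBS, with a log2 change of 0.24 and an adjusted p of 0.0482, and its call was lost without metformin replicate 1 or 2 or any PBS replicate (adjusted p between 0.0756 and 0.121). RPS27L had 1.87, 1.98 and 1.75 FPKM with metformin and 1.46, 2.04 and 2.17 FPKM with PBS, which overlap, and its log2 change of 0.00 had a 95% interval of -0.29 to 0.29, where RPS27 changed by 0.81. RPL22L1 had 9.14, 9.50 and 7.33 FPKM with metformin and 6.87, 7.04 and 11.0 FPKM with PBS, with a log2 change of 0.07 and an interval of -0.36 to 0.51, while RPL22, which is known to repress RPL22L1, had 108, 109 and 109 FPKM with metformin and 74.1, 86.1 and 85.7 FPKM with PBS (log2 change 0.40, adjusted p = 0.00203). The differences between a paralog and its partner were not tested.

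The starts of the paralogs and of RPL22 are shown because paralog and partner differ, or do not, in the TOP tract.
RPL22, chr1:6199581-6199610, minus strand: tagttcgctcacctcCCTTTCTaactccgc
RPL22L1, chr3:170870181-170870210, minus strand: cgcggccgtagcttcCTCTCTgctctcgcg
RPL26L1, chr5:172958714-172958743, plus strand: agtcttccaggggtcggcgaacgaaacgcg
RPS27L, chr15:63157463-63157492, minus strand: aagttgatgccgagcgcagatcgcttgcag
RPL22 and RPL22L1 both have a TOP start, whereas RPL26L1 and RPS27L, unlike RPL26 and RPS27 above, have no pyrimidine at the first base shown. RPL26L1 has 2 RefSeq starts, not both of which are shown, and neither was counted as a TOP start.

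RPL36AL, RACK1 and FAU encode ribosomal proteins that the symbol rule leaves out, and they were divided. RPL36AL, a near copy of RPL36A, had 148, 146 and 149.8 FPKM with metformin and 125, 128 and 127 FPKM with PBS (log2 change 0.22 ± 0.04, adjusted p = 0.00214). All its metformin libraries were above its PBS libraries. RACK1, a scaffold protein of the small subunit's head, had 59.5, 50.7 and 50.5 FPKM with metformin and 62.5, 66.2 and 64.3 FPKM with PBS (log2 change -0.26 ± 0.07, adjusted p = 0.0202), and its call was lost without either of metformin replicates 2 and 3 or PBS replicates 2 and 3, with adjusted p between 0.0515 and 0.0634. FAU, a fusion to a ubiquitin-like protein, had 131, 135 and 117 FPKM with metformin and 115, 124 and 118 FPKM with PBS, which overlap (adjusted p = 0.213).

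The TOP tract was common in this gene group and rarer among all genes with a RefSeq start. Of the 62 core genes with a RefSeq start here, 46 (74.2%) had a TOP start, against 1404 of 27305 (5.14%) of all genes with a RefSeq start. That wider set is unlike the core genes, since it includes genes that were not tested, and it includes the members. Among its tested protein-coding genes 665 had a TOP start and 7919 did not. Among core genes with a TOP start 35 of 46 rose and 1 fell, with a median log2 change of 0.41. Among those without one 9 of 16 rose and 2 fell, with a median of 0.27. The 15 core genes outside the table had 12 rises and 2 falls, with a median of 0.33. Of 618 tested protein-coding genes that have a TOP start and are not members, FAU among them, 181 rose and 175 fell, with a median of 0.01. Of 7919 tested protein-coding genes without a TOP start, which include members, 2329 rose and 2279 fell. These counts are descriptions of the annotated starts, and the start used in CAL27 cells was not measured.

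The core genes were also counted by 2 features of gene structure, and the medians were close. Introns of many ribosomal protein genes carry small nucleolar RNAs, and of 28 core genes with such a gene inside 23 rose and 3 fell (median log2 change 0.35), against 33 and 2 of the 49 others (median 0.35). Of 30 core genes whose exons share bases with another gene at or above the level filter 24 rose and 2 fell (median 0.37), against 32 and 3 of 47 that share none (median 0.35). Where exons overlap on the same strand, as in the pairs given next, fragments of the genes cannot be told apart by strand. For opposite strands this depends on the strand setting of the counting, which is not given in the sources used here. In RPL17, SNORD58B averaged 173 FPKM with metformin and 51.9 FPKM with PBS, where RPL17 itself averaged 90.6 ± 0.950 FPKM with metformin and 72.1 ± 3.59 FPKM with PBS (SD, n = 3). SNORD58B shares only 66 of the 2466 exon bases of RPL17, and FPKM is divided by length, so these levels do not compare fragment numbers. In RPS29, the pseudogene RPL32P29 inside its exons averaged 12.9 FPKM with metformin and 1.19 FPKM with PBS, and RPS29 itself had 10.8, 10.3 and 8.84 FPKM with metformin and 5.96, 8.12 and 8.41 FPKM with PBS (adjusted p = 0.0476). RPL32P29 shares 403 of the 9845 exon bases of RPS29, and the call of RPS29 was lost under 11 of the 20 alternatives.

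Named pseudogenes of the ribosomal protein genes, 1144 in number, were together higher in metformin cells. Their FPKM summed to 599, 618 and 612 in the metformin libraries and 436, 455 and 504 in the PBS libraries, a ratio of means of 1.31. The groups did not overlap, but fragments that match both a gene and its copies may have been counted for either. With each gene summed with its pseudogenes, 57 of the 58 rises were kept, all but RPS29, as were the 5 falls.

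Genes that work with the ribosome were counted in the same way, and their counts stand beside the 31% risen and 25.2% fallen of all tested genes. Of 26 tested TOP mRNAs that do not encode RPL or RPS proteins 8 rose and 11 fell, with a median log2 change of 0.06, and the list includes FAU and RACK1. EEF1A1, which brings aminoacyl-tRNA to the ribosome, had 1351, 1213 and 1057 FPKM with metformin and 978, 1034 and 946 FPKM with PBS (log2 change 0.29, adjusted p = 0.03). EEF2, which moves the ribosome along the mRNA, had 684, 689.8 and 686 FPKM with metformin and 787, 808 and 774 FPKM with PBS (log2 change -0.20, adjusted p = 0.00178). The groups of neither gene overlapped, and they moved in opposite directions. The largest changes of the list were those of HNRNPA1, a splicing regulator (log2 change -1.87), and CCNI, a cyclin (0.85).

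Ribosome biogenesis factors were more often lower, with 24 of 50 fallen, 4 risen and a median log2 change of -0.20. NOP56, a core protein of box C/D snoRNPs, had 15.1, 16.5 and 15.9 FPKM with metformin and 33.6, 33.1 and 34.6 FPKM with PBS (log2 change -1.05, adjusted p = 1.76e-05). NCL, the nucleolar protein nucleolin, had 87.1, 81.2 and 81.8 FPKM with metformin and 158, 161 and 167 FPKM with PBS (log2 change -0.95, adjusted p = 1.31e-05). Both were lower in every metformin library. Of 17 chaperones and importers of ribosomal proteins 4 rose and 8 fell (median -0.15), with PDCD2L (-0.90) and GRWD1, a partner of RPL3 (-0.89), changed most. Of 8 genes around the 5S particle and MDM2 3 rose and 2 fell, among them MDM4, a relative of MDM2 (log2 change 1.17).

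Of 35 initiation factors 5 rose and 15 fell (median log2 change -0.13), with EIF4A1, the helicase of cap-dependent initiation, at -1.54 and EIF1, which guards start codon choice, at 1.13. Of 13 elongation and release factors 2 rose and 6 fell (median -0.09), led by EEF1E1 at 0.87 and the kinase EEF2K, which inactivates EEF2, at -0.87. Of 18 regulators of TOP mRNAs 3 rose and 4 fell (median 0.07). MLST8, a subunit of mTOR complexes, changed by -0.77 and RPS6KB2, an S6 kinase, by -0.70. LARP1 had 39.0, 39.2 and 41.7 FPKM with metformin and 40.2, 36.8 and 41.7 FPKM with PBS, which overlap (adjusted p = 0.846). Of 15 ribosome rescue and quality control genes 3 rose and 9 fell (median -0.36), with EDF1, which binds collided ribosomes, at -1.49 and ZNF598, which marks them with ubiquitin, at 0.76.

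The 78 tested genes for proteins of the mitochondrial ribosome, a separate particle that translates mitochondrial mRNAs, were more often lower, with 6 risen, 31 fallen and a median log2 change of -0.23. MRPL12, a stalk protein of that particle, averaged 40.0 ± 7.80 FPKM with metformin and 111 ± 8.09 FPKM with PBS (SD, n = 3), the largest change of the 78 (log2 change -1.47, adjusted p = 0.000162). Whether the lists differ from each other was not tested.

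**Figure D4:**
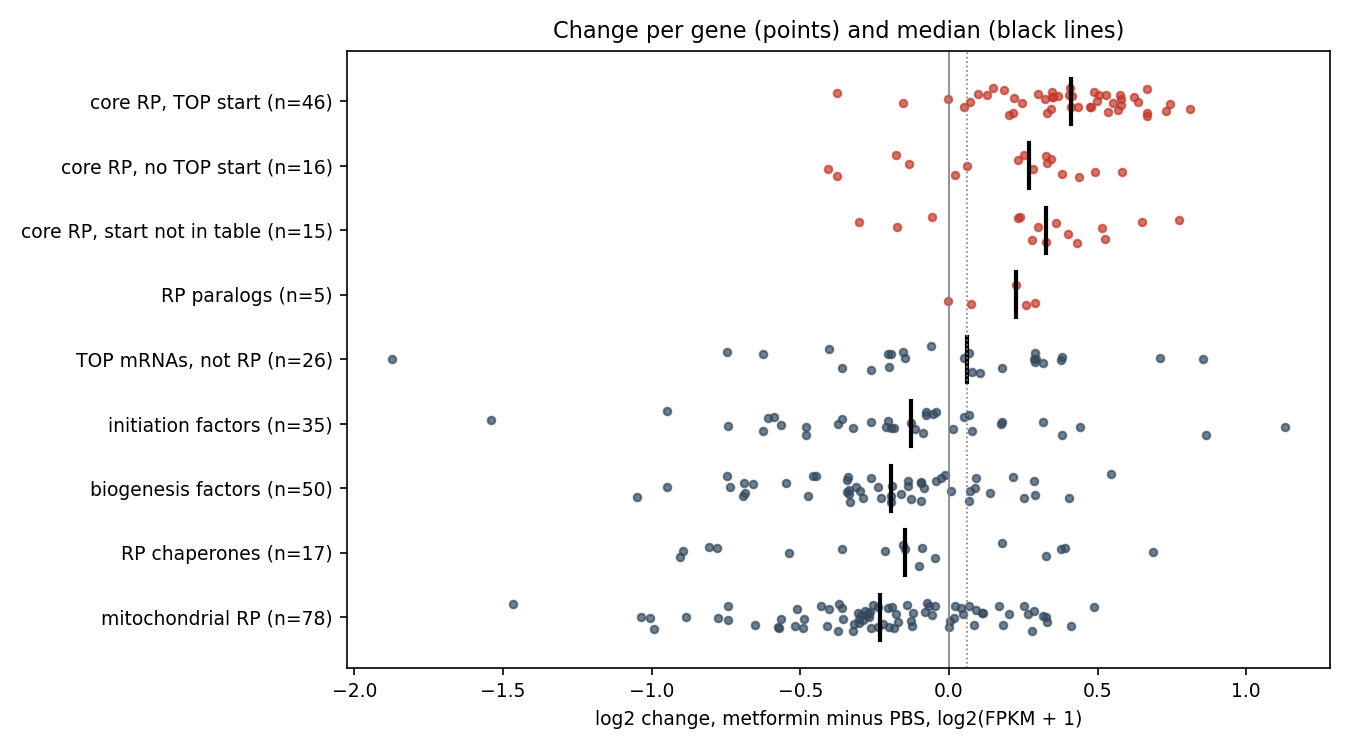
Log2 change per gene, metformin minus PBS in log2(FPKM + 1), for core ribosomal protein genes (RP) by their annotated start, for their paralogs and for lists of genes that work with the ribosome, with a black line at each median and a dotted line at the median of all tested genes. Medians of the core groups lie between 0.27 and 0.41, and those of the 5 other lists between -0.23 and 0.06.

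Across the whole series the libraries were close in depth, with 7810000 to 8820000 fragments each, estimated from the steps between low values. Squamous epithelial markers were present, as the label of an epithelial line requires, and they moved between the groups: of 10 markers 2 rose and 7 fell, and their summed level was 810 to 833 FPKM with metformin and 1434 to 1528 FPKM with PBS. Fibroblast markers summed to 2.51 to 2.74 FPKM with metformin and 1.54 to 2.34 FPKM with PBS, with PDGFRA and DCN at 0 throughout. Leukocyte markers summed to 1.13 to 2.73 FPKM with metformin and 3.40 to 4.82 FPKM with PBS, mostly from CD14. In metformin replicate 3, however, LYZ (0.99 FPKM) was close to CD14 (1.09 FPKM). Endothelial markers summed to 2.01 to 2.32 FPKM with metformin and 5.93 to 6.87 FPKM with PBS, mostly from CDH5, with KDR at 0 throughout. The part of the epithelial markers in the results above was not tested.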

How the data were processed

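For each library the authors deposited FPKM by gene, per the file headers. The genome build was GRCh38, per the submitters' processing notes. For the aligner, quantifier, strand setting and annotation, the sources used here give no name. Libraries were prepared with a VAHTS mRNA kit, per the labels' protocols. Of 58243 gene identifiers 57980 were named from GENCODE release 29 by the identifier without its version. No counts were used: with exon-union lengths, 23.9 to 26% of low values of genes with several transcripts came within 0.03 of a whole fragment. Depth was estimated from the steps between low values of other genes, those with a single annotated transcript.

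The 13437 genes that averaged 1 FPKM or more across the 6 libraries were fitted together as log2(FPKM + 1) with limma 3.58.1 in R 4.3.3 (lmFit, eBayes with an intensity trend, two-sided, group as the only term), with Benjamini-Hochberg adjustment over all of them at 0.05. The scale understates changes of low genes. The fit was tested on simulated data. Folds are ratios of mean FPKM, and SE and intervals (95%) are limma's. Exon overlaps used BEDTools 2.31.1, and other steps Python 3.11.15 with pandas 2.3.3 and NumPy 2.4.6. RefSeq starts matched 62 of 77 core genes.

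The members and lists were chosen with earlier results of these data known. Values per library are given for the 8 largest rises with separate groups and at least 5 FPKM, every fall, the paralogs with their partners, the 4 most abundant members and ribosomal protein genes outside the rule; members known for other roles were added, as were further rises and uncalled examples after their values were seen. Some items that this selection covers are not reported here, though counts, sums and medians include them. Alternatives were other pseudocounts, filters, scalings, pseudogene sums, a replicate block, other limma settings and left-out libraries.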

Additional observations from a re-analysis of the deposited data

How the results depend on the processing

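Of the 58 rises 48 were kept under each of 20 alternatives, and of the 5 falls RPS26, RPL12 and RPL3 were kept. The count of falls was 3 without the level filter, 8 under median-of-ratios scaling and 3 under quantile scaling. Of all tested genes 11.5%, 28.7% and 28.4% fell under these settings, against 25.2% in the main fit. The median change of the members was 0.27 under median-of-ratios scaling and 0.45 under quantile scaling. That of all tested genes was -0.003 and -0.007, against 0.06 in the main fit. The member median less that of all tested genes was 0.27 and 0.46, against 0.28 in the main fit. The cause of these shifts was not tested. Under quantile scaling RPS2 reversed to 0.0418, and RPLP0, which was not called in the main fit, was higher by 0.16. Leaving out 1 library at a time gave 50 to 58 rises, 4 to 7 falls, a median change of 0.30 to 0.36, a difference between the RPL and RPS medians of -0.03 to 0.02 and a metformin-over-PBS ratio of the RPL to RPS sums of 0.985 to 1.01. In these fits 27.1 to 28.4% of all tested genes rose and 22.5 to 23% fell. With replicate number as a block 57 rose and 6 fell, and the block gained RPL6 and RPL10A and lost RPL31 and RPS29. Of all tested genes 29.3% rose and 23.8% fell with the block. Over all tested genes the deviations of same-numbered libraries from their group means correlated at 0.00, 0.03 and -0.01. Both libraries numbered 3 still shared a high level of RNAs without a poly(A) tail, so whether same-numbered libraries share an origin is not known. RPL31 and RPS29 each lost their call under 11 alternatives. No read counts were used, so depth is an estimate, and 3 libraries per group limit what can be called.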
